A study of Homo sapiens with 12 samples.

Results

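The comparison described here is that of MV3 melanoma cells kept in medium from unpolarized macrophages (M0 medium) with MV3 cells kept in fresh medium (Ctrl). It took 6 of the series' 12 libraries, 3 labelled M0 and 3 labelled Ctrl, and was read across all genes. MV3 is an established human line that came from a melanoma metastasis in a lymph node. The cells were maintained in DMEM with 10% serum, and both groups spent 3 h in RPMI with 1% serum before the medium was changed. The M0 group then had 24 h in RPMI conditioned by THP-1 cells, a monocyte line, turned into macrophages with the phorbol ester PMA and given no further stimulus. The Ctrl group had fresh RPMI that no cells had conditioned. The other 6 libraries were from cells in medium of the same macrophages after LPS and interferon-gamma (M1) or after IL4 and IL13 (M2), and are used below for side-by-side levels. What the macrophages released, what they used up and any PMA carried over in the medium cannot be told apart in this design. All cells were of 1 line, and nothing in the labels says that the 3 replicates of a group were separate cultures, so the tests speak only of variation among these libraries, part or all of which may be technical.

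Cells that run short of amino acids, or whose endoplasmic reticulum is overloaded, phosphorylate the initiation factor eIF2alpha. Translation then slows, while that of the transcription factor ATF4 rises, and ATF4 turns on genes for amino acid synthesis, amino acid import, tRNA charging and stress signalling. Inflammatory ligands such as interleukin 1 and TNF act mainly through NF-kB, a family of dimeric factors held in the cytoplasm by IkB proteins, which induces cytokines, adhesion molecules and its own inhibitors. Passage from G1 into DNA replication depends on cyclins, their kinases and E2F factors, and is held back by inhibitors such as p21.

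Library totals ran from 28706025 to 42921242 counts in Ctrl and from 21788397 to 29952546 in M0. Levels are CPM, read counts scaled to TMM-adjusted library size and not corrected for gene length, and fold changes with their standard errors (SE) are from edgeR. Of 14088 genes tested, 61.7% passed an adjusted p of 0.05, 31.1% higher in M0 medium and 30.6% lower. With a change of at least 2-fold added, 16.4% passed, 8.36% higher and 8.03% lower. The values of the 3 Ctrl and the 3 M0 libraries did not overlap for 64.4% of genes. The median log2 fold change over all genes was 0.00, and the middle 90% lay between -1.25 and 1.38. Changes of 8-fold or more were more numerous upwards, with 154 genes higher and 30 lower. So large a share of called genes means that a member's call alone says little, and sizes are given with it. Counts of list members below are to be read beside the shares over all genes, 31.1% higher and 30.6% lower.

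The 6 libraries separated by medium on the first principal component, which held 80.75% of the variance. M0 replicates 3 and 2 lay at opposite ends of the second (-23.35 and 18.23, with replicate 1 at 3.68). Their deviations from the M0 mean had similar spread (SD 0.227 and 0.224 on the log2 scale, against 0.176 for replicate 1). The list counts of cytokines, replication and mitosis are given with and without replicate 3. Ctrl replicate 1 was farther from the other Ctrl libraries than they were from each other, with a chi-square per degree of freedom of 22.73 and 28.74 against 4.53. Of 15 macrophage markers, CD33 alone passed the expression filter, and it was not called (adjusted p = 0.208). The summed level of all 15 was 1.53 to 1.83 CPM of the library total in Ctrl and 1.07 to 1.28 in M0, and AIF1, SPI1 and FCGR1A had no read in either group. Melanoma labels were met in part: CSPG4, MCAM, PRAME and AXL were expressed, while the lineage genes SOX10, S100B, MLANA, TYR and MIA had no reads in any of the 6 libraries. PRAME, CSPG4 and MCAM were lower in M0, by 1.66, 1.16 and 0.54 on the log2 scale, and AXL was not called. The lineage gene MITF was low but higher in M0, at 1.17 CPM in Ctrl and 3.10 CPM in M0 (edgeR adjusted p = 3.24e-05). The sum of 10 fibroblast and endothelial markers was 649.1 to 866.9 CPM of the total in Ctrl and 360.7 to 463.6 in M0, most of it COL1A1, and the endothelial gene CDH5 had no reads.

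**Figure D1:**
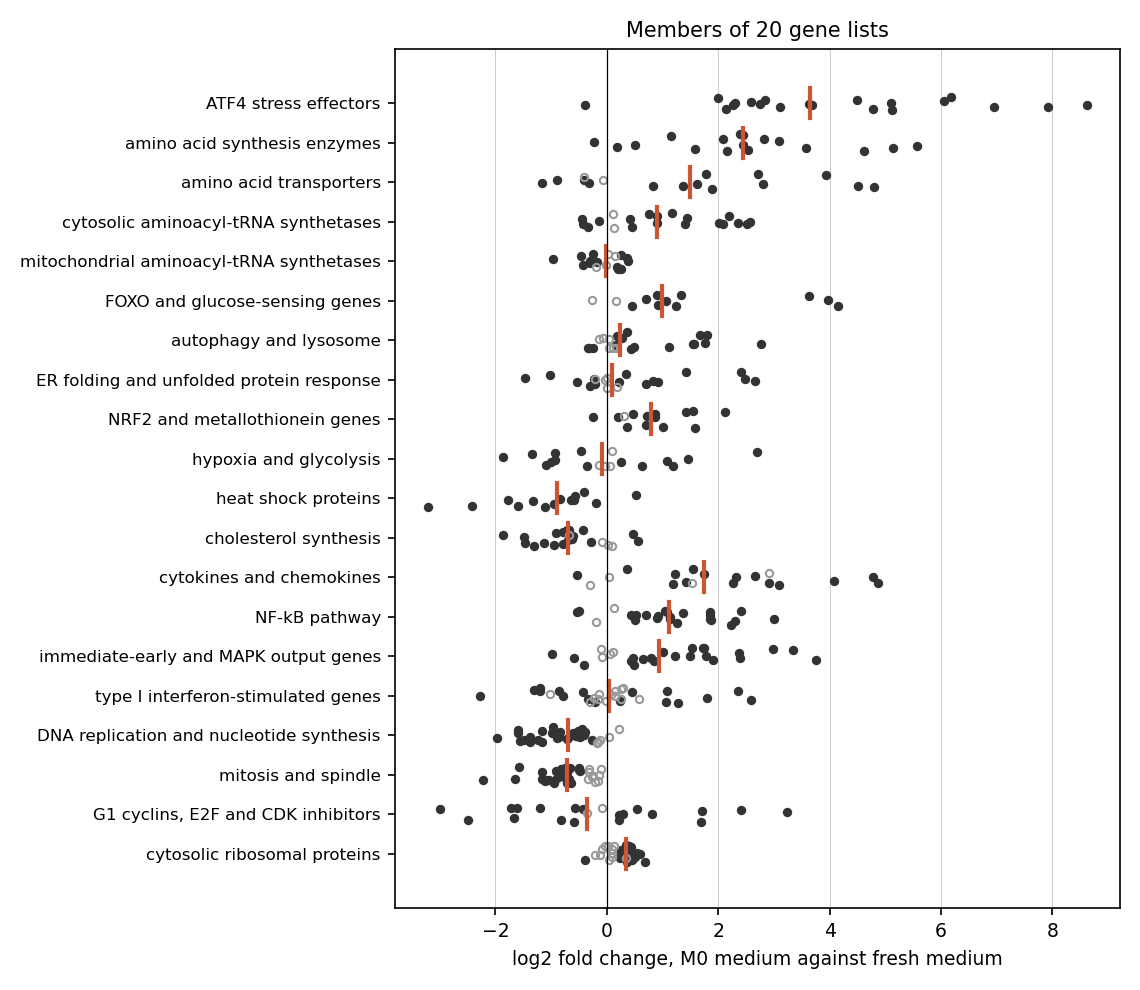
Log2 fold changes of M0 medium against fresh medium (x axis) for the tested members of 20 gene lists (y axis), 1 point per gene. Filled points passed an adjusted p of 0.05, open points did not, and red bars are list medians, which run from 3.65 for the ATF4 stress effectors to -0.89 for heat shock proteins.

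The ATF4 stress effectors, the list of factors and secreted proteins made under amino acid or endoplasmic reticulum stress, rose almost as a whole. Of 20 members tested, 19 were higher in M0 medium, each by at least 2-fold, and 1 was lower, where 31.1% of all genes were higher and 8.36% by 2-fold. The list median was 3.65 on the log2 scale, against 0.00 for all genes. The summed level of the list was 972.1 to 1006 CPM in Ctrl and 6206 to 6299 CPM in M0. INHBE, which encodes an activin subunit (chr12:57452323-57459280), had 0.0913, 0.1 and 0.188 CPM in Ctrl and 52.4, 57.7 and 39.7 CPM in M0. Its log2 fold change of 8.62 (SE 0.24, adjusted p = 1.43e-13) was the largest of the genes that the naming rule gave. The 2 groups were far from overlapping in every stress effector shown in the plot of these genes by library, except for ATF5, where they lay close together.

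Regulators of the pathway itself moved with its outputs. ATF4 mRNA was at 55.8, 71.6 and 81.2 CPM in Ctrl and at 452, 455 and 496 CPM in M0, 6.74-fold higher (log2 2.75, SE 0.11, adjusted p = 7.49e-12). DDIT3, the stress factor CHOP, rose from 4.95 ± 0.75 to 62.8 ± 1.35 CPM (SD, n = 3 each). ATF3 rose from 2.22 ± 0.20 to 50.2 ± 6.63 CPM, and CEBPB from 15 ± 1.16 to 130 ± 3.22 CPM. PPP1R15A, the phosphatase subunit that restores eIF2alpha, was 5.99-fold higher. TRIB3, a pseudokinase that binds ATF4, had 20.5 to 24.3 CPM in Ctrl and 736 to 819 CPM in M0. ATF5, a relative of ATF4, went the other way, with 66.6, 78.2 and 77.7 CPM in Ctrl against 56.5, 62 and 50.7 CPM in M0 (log2 -0.40, SE 0.08, adjusted p = 0.00069). Its exons overlap those of other genes on the opposite strand, and the strand setting of the counting is not known.

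Growth brakes and secreted stress signals in the list had some of the largest changes. DDIT4, an inhibitor of mTORC1, was at 10.3, 7.94 and 10.2 CPM in Ctrl and at 313, 326 and 338 CPM in M0, 34.2-fold higher (adjusted p = 1.67e-15). SESN2, the leucine sensor that also restrains mTORC1, rose 72.3-fold and CHAC1, which breaks down glutathione, 124-fold. NUPR1, a small stress-induced chromatin protein, was at 1.87, 2.61 and 2.72 CPM in Ctrl and at 151, 194 and 128 CPM in M0. GDF15, a hormone that suppresses appetite, had 2 reads over the Ctrl libraries and 430 over the M0 libraries, a ratio of 285.2 after scaling for totals (exact 95% counting interval 78.47 to 2362). FGF21, a starvation hormone, had 2 and 49 reads, a ratio of 32.5 (8.53 to 275.9). Intervals and floors of this kind cover counting error only. STC2, a secreted glycoprotein and among the 5 genes with the most CPM in M0 of those at least 2-fold higher, was at 611, 561 and 581 CPM in Ctrl and 2709, 2543 and 2427 CPM in M0.

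ATF4 binds DNA as a dimer with C/EBP proteins at the composite element TGATGNAA. On either strand and within 250 bases upstream of a RefSeq start (GRCh38.p14), this motif was in 3.14% of 35116 starts, and in 5 of 29 starts of the stress effectors (17.2%, from the 18 of 20 genes in the table). It was in 4 of 18 starts of the amino acid synthesis enzymes (22.2%), 3 of 21 of the cytosolic tRNA synthetases (14.3%), 2 of 32 of the amino acid transporters (6.25%) and 1 of 18 of the mitochondrial synthetases (5.56%). The windows of up to 30 bases below hold the motif in capitals for the stress effectors and 2 further genes that rose. A match on the other strand reads as the reverse complement. They are shown to let the spacing and the flanking bases be compared, and a match describes letters, not binding.
CHAC1 (chr15:40953251-40953280, plus strand): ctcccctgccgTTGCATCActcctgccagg
ATF3 (chr1:212565205-212565234, plus strand): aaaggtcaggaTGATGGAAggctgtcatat
CEBPG (chr19:33374060-33374089, plus strand): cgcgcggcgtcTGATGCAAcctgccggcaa
JDP2 (chr14:75427995-75428021, plus strand): atagccggggcTGATGCAAcccgtccc
FGF21 (chr19:48755459-48755488, plus strand): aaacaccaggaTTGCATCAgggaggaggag
ASNS (chr7:97872458-97872487, minus strand): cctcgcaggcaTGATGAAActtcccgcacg
GARS1 (chr7:30594834-30594863, plus strand): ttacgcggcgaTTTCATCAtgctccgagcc
The motif began 209 bases upstream of the start in CHAC1, 191 in ATF3, 68 in ASNS, 54 in FGF21, 42 in CEBPG, 33 in GARS1 and 16 in JDP2. The fold changes of these genes, by the order of that distance, were 124, 22.5, 35.2, 27.3, 4.93, 5.69 and 12.4.

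Enzymes that make nonessential amino acids and their 1-carbon units rose with the effectors. Of 17 tested, 16 were higher and 1 lower, with a median log2 fold change of 2.44. CTH, the last step of cysteine synthesis from methionine, was at 2.81, 2.58 and 2.91 CPM in Ctrl and at 130, 138 and 129 CPM in M0, 47.7-fold higher (log2 5.58, SE 0.08, adjusted p = 6.55e-16). ASNS, asparagine synthetase, went from 0.308 ± 0.12 to 11.5 ± 3.13 CPM. PCK2, the mitochondrial enzyme that makes phosphoenolpyruvate, went from 20.5 ± 2.39 to 506 ± 21 CPM. The serine and glycine route moved at each step measured, with PHGDH 5.8-fold, PSAT1 11.9-fold, PSPH 5.23-fold, SHMT2 4.44-fold and MTHFD2 8.54-fold higher. GLUL, which makes glutamine from glutamate, rose 1.42-fold.

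Amino acid transporters did not move as a block. Of 16 tested, 10 were higher, 4 lower and 2 not called, with a median of 1.5. SLC7A11, the subunit that imports cystine, was at 33, 25.4 and 23.4 CPM in Ctrl and 425, 415 and 415 CPM in M0, and its partner SLC3A2 rose 7-fold. SLC1A4 and SLC6A9, which carry alanine, serine, cysteine and glycine, rose 27.8-fold and 22.7-fold. SLC7A5, the importer of leucine and other large neutral amino acids, went from 320 ± 58.1 to 2096 ± 44.1 CPM. The 4 that fell were SLC6A6, the taurine carrier (39.4 ± 5.94 to 17.7 ± 2.79 CPM), SLC7A6 (179 ± 19.5 to 95.8 ± 7.18 CPM), and the lysosomal carriers SLC36A4 (log2 -0.40) and SLC36A1 (log2 -0.31).

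Enzymes that charge tRNAs were mostly higher for the cytosol and mixed for the mitochondria. Of 20 cytosolic aminoacyl-tRNA synthetases, 14 were higher, 4 lower and 2 not called, with a median of 0.90. Of 17 mitochondrial ones, 6 were higher, 7 lower and 4 not called, with a median of -0.01, and none changed by 2-fold. GARS, which charges glycine in both compartments, was at 335, 342 and 337 CPM in Ctrl and 1891, 1879 and 2006 CPM in M0, 5.69-fold higher (adjusted p = 1.85e-14). WARS rose 5.95-fold, AARS 5.09-fold, SARS 4.58-fold and YARS 4.22-fold. KARS was level at 347 ± 4.38 and 378 ± 19.1 CPM (adjusted p = 0.0871), and QARS, FARSA, VARS and HARS fell by 0.42, 0.45, 0.33 and 0.14 on the log2 scale. Among the mitochondrial enzymes LARS2 moved most, from 68.9 ± 3.38 to 35.5 ± 2.13 CPM. The count of mitochondrial synthetases called higher was 3 under 4 of the alternative settings, namely library totals as the only scaling, no filter, without Ctrl replicate 2 and without M0 replicate 2.

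**Figure D2:**
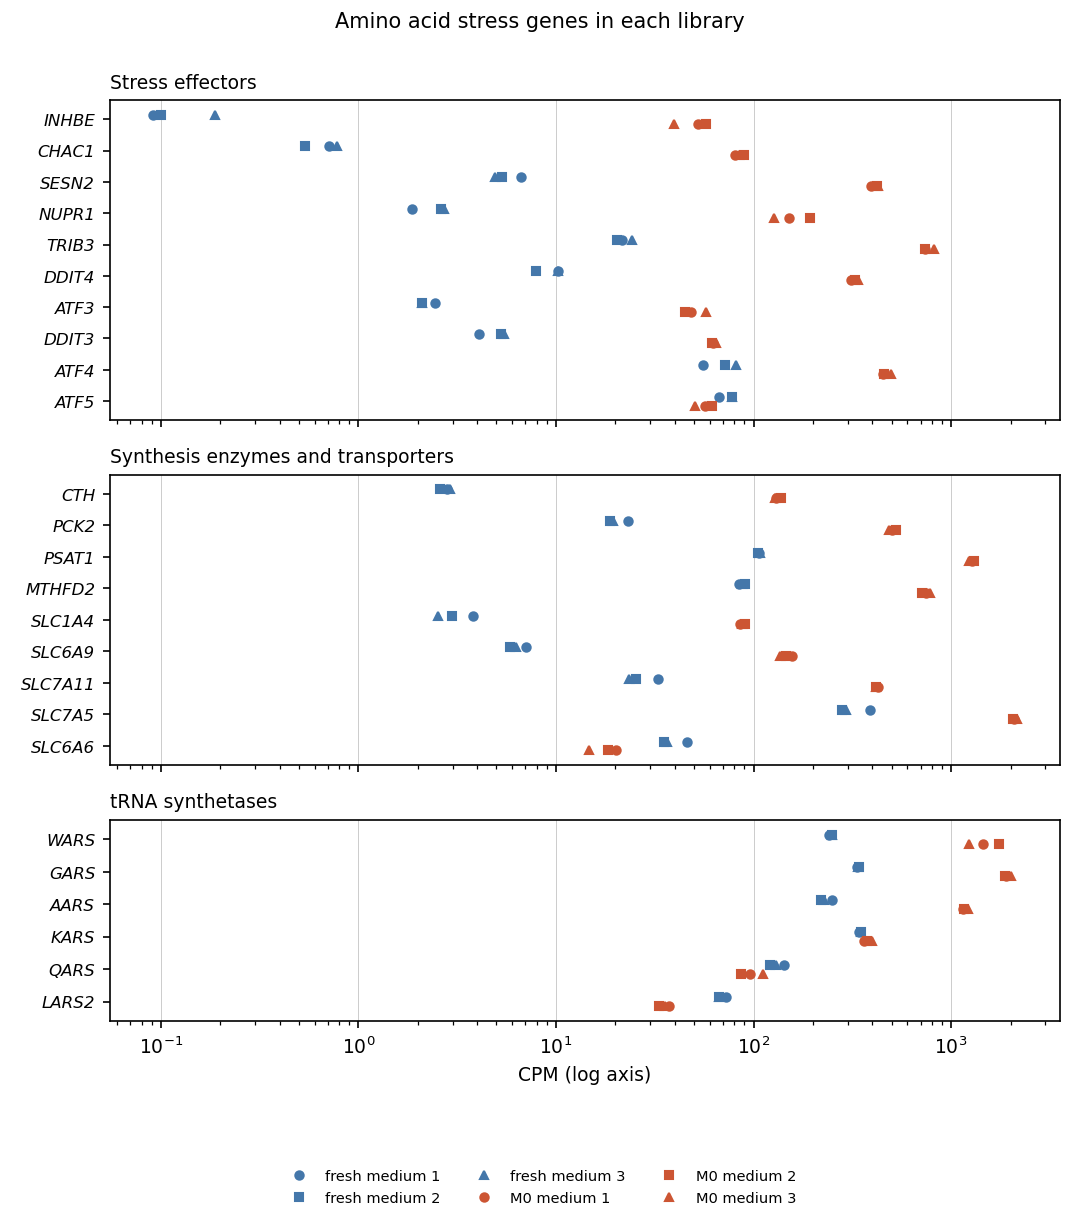
Level of amino acid stress genes in each library, in CPM on a log axis, with fresh medium in blue and M0 medium in red and a marker shape for each replicate number. In the top panel 9 genes lie far to the right in M0 medium, with INHBE near 0.1 CPM in Ctrl and at 39.7 to 57.7 CPM in M0, while ATF5, SLC6A6, QARS and LARS2 lie to the left.

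Genes of the list of FOXO and glucose-sensing genes were higher in 10 of 12 tested and lower in none, with a median of 1.00. Without Ctrl replicate 3, without M0 replicate 2 or with library totals as the only scaling, 1 was lower. In a fit of the 6 Ctrl and M0 libraries alone, 11 were tested, 9 higher and 0 lower, with a median of 0.93. TSC22D3, a leucine zipper protein induced by glucocorticoids and FOXO3, was at 4.77, 3.78 and 4.16 CPM in Ctrl and 73, 75.1 and 78.5 CPM in M0 (log2 4.14, SE 0.08, adjusted p = 4.75e-15). TXNIP, an inhibitor of thioredoxin and of glucose uptake whose transcription follows glucose metabolites, went from 14.8 ± 1.69 to 186 ± 23.5 CPM. KLF15 had 2 reads in Ctrl and 28 in M0, a ratio of 18.57 (exact 95% counting interval 4.68 to 160.9). Autophagy and lysosome genes were higher in 13 of 22 and lower in 3, with a median of 0.23. The autophagosome protein MAP1LC3B rose 6.84-fold, the initiating kinase ULK1 3.48-fold and the cargo receptor SQSTM1 2.92-fold.

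Endoplasmic reticulum genes went both ways. Of 20 tested, 9 were higher and 6 lower, with a median of 0.09. HERPUD1 and DNAJB9, a degradation factor and a chaperone partner of BiP, were 6.35-fold and 5.6-fold higher, and XBP1, the factor spliced by IRE1, 5.33-fold. HSPA5, which encodes BiP, was at 931, 707 and 716 CPM in Ctrl and 2037, 2381 and 1923 CPM in M0. The calcium-binding chaperone CALR fell from 930 ± 74.9 to 459 ± 62.9 CPM, SDF2L1 from 6.69 ± 0.56 to 2.42 ± 0.64 CPM, and PDIA4 by 0.53 on the log2 scale. HSP90B1 and PDIA3 were level, both at a log2 fold change of 0.00. The redox genes of the NRF2 and metallothionein list were higher in 12 of 14 and lower in 1, with a median of 0.79 and the thioredoxin reductase TXNRD1 (4.33-fold) on top, while TXN, thioredoxin itself, fell by 0.25 on the log2 scale. The TXN call was lost in the fit of the 6 libraries and on leaving out Ctrl replicate 2 or 3 or M0 replicate 1 or 2 (adjusted p = 0.0785 to 0.15).

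Hypoxia and glycolysis genes were split, 6 higher and 8 lower of 18, with a median of -0.09. NDRG1, a stress-induced gene, rose from 56.6 ± 4.14 to 367 ± 68.8 CPM, and VEGFA from 132 ± 31.5 to 301 ± 8.31 CPM. PFKFB4, which makes an activator of glycolysis, fell from 10.5 ± 1.22 to 2.92 ± 0.41 CPM. LDHA, lactate dehydrogenase, was at 2053, 2081 and 2031 CPM in Ctrl and at 999, 874 and 1222 CPM in M0 (log2 -0.99, SE 0.09, adjusted p = 2.39e-07). The host transcript of the hypoxia microRNA miR-210, MIR210HG, was among the 25 genes with the lowest fold changes, at 2.51, 2.24 and 2.6 CPM in Ctrl and 0.371, 0.372 and 0.28 CPM in M0.

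Cytokines and chemokines were higher in 14 of 19 tested and lower in 1, with a median of 1.75 (1.65 without CSF2, which had 0 reads in Ctrl and 2 in M0). The expression filter took in all 12 libraries, so a member could pass it through the other media. CCL5, for example, had 0.105, 0.341 and 11.3 CPM in Ctrl, M0 and M1. In the fit of the 6 Ctrl and M0 libraries, 13 members were tested, 11 higher and 1 lower, with a median of 2.26. IL1A and IL1B, the 2 agonist ligands of the interleukin 1 receptor, rose 29.3-fold and 27.6-fold. IL1A was at 0.708, 0.435 and 0.657 CPM in Ctrl and at 17.6, 17 and 19.6 CPM in M0 (log2 4.87, SE 0.18, adjusted p = 4.81e-12). IL6 rose 16.9-fold. IL24, an IL10-family cytokine first found in melanoma cells, rose from 1.83 ± 0.17 to 13.7 ± 1.72 CPM. LIF, a relative of IL6, rose from 18 ± 1.02 to 41.1 ± 11.3 CPM. CSF1, the macrophage growth factor, was at 20.5 ± 2.77 and 21.1 ± 3.62 CPM (adjusted p = 0.856).

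The neutrophil chemokines of the CXCL cluster on chromosome 4 did not share a direction. CXCL2 was at 1.03, 1.07 and 1.03 CPM in Ctrl and 8.37, 6.52 and 11.8 CPM in M0, 8.57-fold higher. CXCL5 was at 180, 171 and 161 CPM in Ctrl and 550, 477 and 689 CPM in M0, and CXCL3 rose 4.81-fold. CXCL1, which lies in the same cluster and has the same NF-kB motif letters as CXCL2 and CXCL3 in the windows below, was at 24.9, 35.2 and 33.3 CPM in Ctrl and at 22.5, 14 and 27.3 CPM in M0. These CXCL1 values overlapped, and its lower call (log2 -0.53, SE 0.21, adjusted p = 0.0343) was lost with DESeq2 and on leaving out Ctrl replicate 2 or 3 or M0 replicate 1 or 2, with adjusted p of 0.0615 to 0.141 there. In CXCL8, CXCL5, CXCL3 and CXCL2 the highest M0 value was that of replicate 3, and CXCL8 ranged from 51.1 to 205 CPM within M0. The summed level of the list was 286 to 301.2 CPM in Ctrl and 948.1, 820.4 and 1254 CPM in M0 replicates 1, 2 and 3. Leaving out any of the 6 libraries gave 11 to 13 genes higher in place of 14, 12 of them without M0 replicate 3.

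NF-kB subunits, inhibitors and targets were higher in 20 of 24 tested and lower in 2, with a median of 1.11. Among the subunits, RELB and NFKB2 of the noncanonical arm were 8.02-fold and 4.69-fold higher, while RELA rose by 0.91 and NFKB1 by 1.08 on the log2 scale and REL was not called. NFKB2 was at 20.1, 18.8 and 21.7 CPM in Ctrl and 90.6, 86.7 and 107 CPM in M0 (log2 2.23, SE 0.09, adjusted p = 1.48e-11). ICAM1, the adhesion ligand of leukocyte integrins, rose from 15.1 ± 2.45 to 80.3 ± 16.7 CPM. BIRC3, an inhibitor of apoptosis, rose from 17.9 ± 1.39 to 88.3 ± 34.5 CPM, and SOD2, the mitochondrial superoxide dismutase, from 66.4 ± 2.86 to 239 ± 33.2 CPM. The feedback inhibitor TNFAIP3 rose from 11 ± 0.47 to 22.6 ± 2.30 CPM, and NFKBIA by 0.90 on the log2 scale. The 2 that fell were TRAF2, an adaptor of TNF receptors (29.3 ± 1.04 to 20.1 ± 2.09 CPM), and CD83 (5.59 ± 0.15 to 3.99 ± 0.30 CPM).

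The NF-kB motif, GGGA and TTCC with 2 free bases between them, was searched on both strands. It was in 1.4% of all starts in the 250 bases upstream, in 12 of 40 starts of the NF-kB list (30%) and in 9 of 26 starts of the cytokines (34.6%). The windows below, with 1 match in capitals, include genes that rose much, rose little and fell. A match on the other strand begins with GGAA and ends with TCCC.
NFKB2 (chr10:102395674-102395703, plus strand): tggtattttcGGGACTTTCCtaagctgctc
IL6 (chr7:22727117-22727146, plus strand): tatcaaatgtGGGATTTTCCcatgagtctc
CXCL2 (chr4:74099253-74099282, minus strand): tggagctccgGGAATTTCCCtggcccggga
CXCL3 (chr4:74038748-74038777, minus strand): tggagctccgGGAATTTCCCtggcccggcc
CXCL1 (chr4:73869305-73869334, plus strand): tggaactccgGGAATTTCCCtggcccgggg
TNFAIP3 (chr6:137867182-137867211, plus strand): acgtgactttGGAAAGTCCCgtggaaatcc
CD83 (chr6:14117712-14117741, plus strand): tggcgcgcagGGAAGTTCCCgaacgcgcgg
The match in capitals began 78 bases upstream of the start in CXCL1 and CXCL3 and 77 in CXCL2, and in each of these genes it overlaps a match on the gene's own strand that begins 1 base earlier.

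Receptors for inflammatory ligands changed in both directions. IL1RL1, the receptor for IL33, was at 0.548, 0.536 and 0.625 CPM in Ctrl and at 63.7, 75 and 46 CPM in M0 (log2 6.75, SE 0.31, adjusted p = 6.15e-11), and its exons overlap those of IL18R1 on the same strand. C5AR1, the receptor for complement C5a, went from 0.0973 ± 0.051 to 18.9 ± 8.65 CPM. OSMR and IL13RA2, receptors for oncostatin M and IL13, were 2.99-fold and 3.32-fold higher. IL6R fell from 18.1 ± 2.01 to 5.88 ± 1.66 CPM while its partner IL6ST rose by 0.79 on the log2 scale. Of the 18 genes of the STAT3 and IL6-family list, 10 were higher (55.6%, against 31.1% of all genes) and 6 lower (33.3%, against 30.6%).

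Matrix proteases and the plasminogen system divided evenly, 7 higher and 7 lower of 14. MMP1, an interstitial collagenase, was at 1.55, 1.51 and 1.75 CPM in Ctrl and 37.1, 35.5 and 35.6 CPM in M0 (log2 4.49, SE 0.14, adjusted p = 7e-13), and stromelysin MMP3 was 10.6-fold higher. Reads of MMP1 and MMP3 may include those of WTAPP1, which lies on the opposite strand. SERPINB2, an inhibitor of urokinase, was 4.58-fold higher, while PLAT, tissue plasminogen activator, was 2.82-fold and TIMP2 2.05-fold lower. PTGS2, the inducible cyclooxygenase, was at 14.6, 12 and 11.1 CPM in Ctrl and at 31.9, 19.2 and 91.8 CPM in M0, where replicate 3 was the highest. The bradykinin receptor BDKRB1 fell from 10.4 ± 0.95 to 2.00 ± 0.24 CPM, and 5 of 8 prostaglandin and bradykinin genes were lower.

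Type I interferon-stimulated genes did not rise as a list. Of 30 tested, 8 were higher, 9 lower and 13 not called, with a median of 0.03, where 31.1% of all genes were higher and 30.6% lower. In the fit of the 6 Ctrl and M0 libraries, 25 were tested, 7 higher and 8 lower, with a median of 0.15. Some of the 30 had few reads in both groups, such as RSAD2 with 3 in Ctrl and 2 in M0. XAF1 rose from 0.648 ± 0.11 to 3.84 ± 0.15 CPM and OASL from 0.995 ± 0.24 to 3.48 ± 0.40 CPM. IFI44 was at 27.7, 28.9 and 30.3 CPM in Ctrl and 12.5, 9.45 and 15.5 CPM in M0, and OAS3 fell from 29.4 ± 2.92 to 12.7 ± 3.61 CPM. ISG15 was at 10.7 ± 2.40 and 11.8 ± 1.09 CPM (adjusted p = 0.539). Genes of antigen presentation by MHC class I were higher in 8 of 16 and lower in 4, with log2 fold changes from -1.22 to 0.64. Between these extremes, B2M, the light chain of class I molecules, was 1.37-fold higher and the class I transactivator NLRC5 1.95-fold lower.

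**Figure D3:**
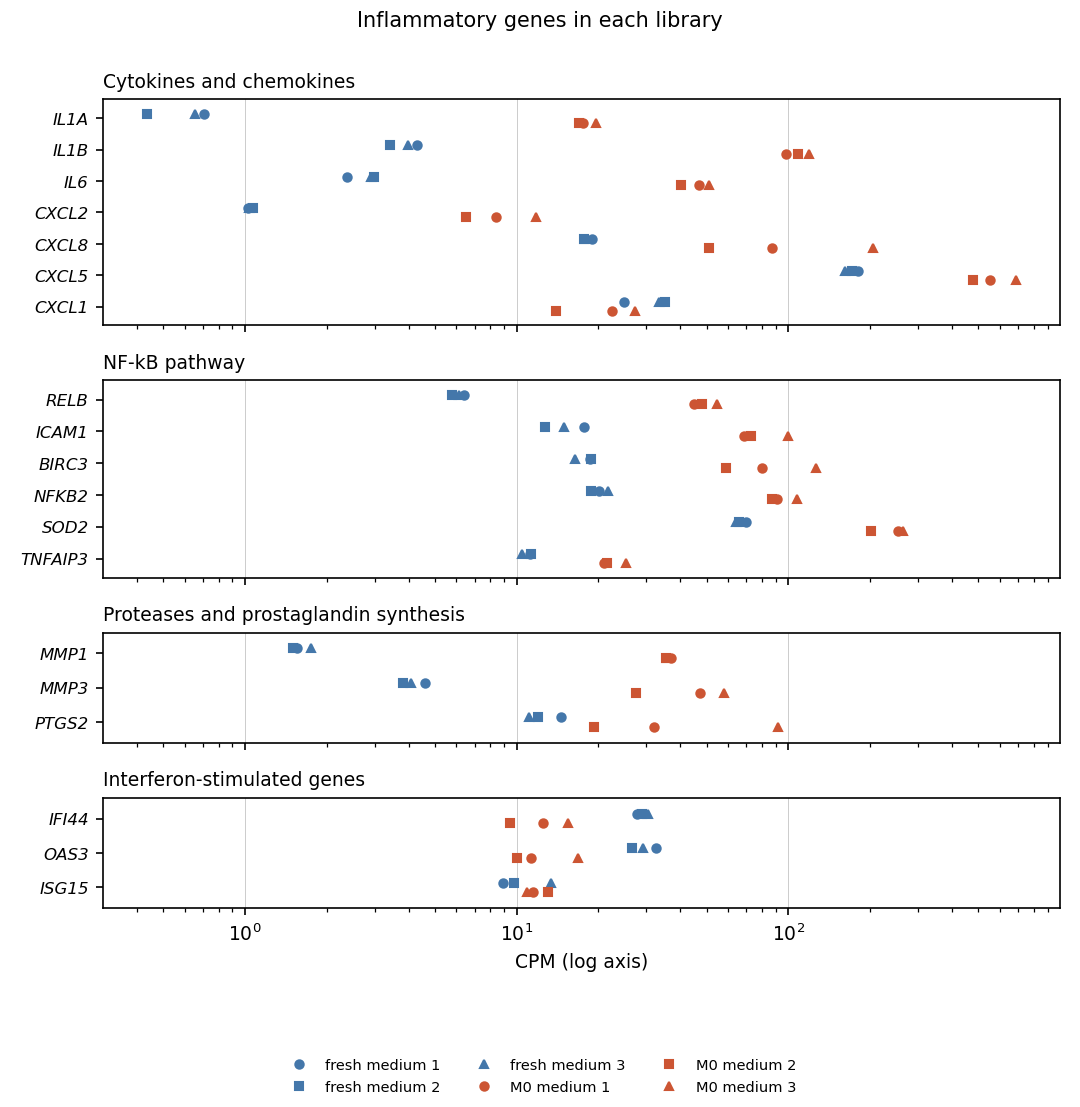
Level of inflammatory genes in each library, in CPM on a log axis, with fresh medium in blue and M0 medium in red. M0 replicate 3 (triangle) is the highest M0 point for CXCL8 (205 CPM) and PTGS2 (91.8 CPM), while CXCL1 overlaps and the interferon-stimulated IFI44 and OAS3 lie to the left of Ctrl.

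Immediate-early genes and outputs of the MAP kinase pathway were higher in 19 of 26 and lower in 3, with a median of 0.94. Which stimulus raised them was not tested. EGR1 was at 6.83, 6.43 and 6.1 CPM in Ctrl and at 70.9, 90 and 103 CPM in M0 (log2 3.76, SE 0.12, adjusted p = 1.27e-12). The EGF receptor ligands AREG and EREG rose 10.1-fold and 7.9-fold. Of the phosphatases that switch the pathway off, DUSP6 rose 3.42-fold and DUSP4 fell 1.98-fold. MYC, a driver of growth genes, was at 72.3, 70.1 and 70.4 CPM in Ctrl and 260, 263 and 272 CPM in M0.

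Cell-cycle genes fell at the same time. Of 34 genes for DNA replication and nucleotide synthesis, 29 were lower and none higher (1 higher without Ctrl replicate 3 or with no filter), with a median of -0.70 and a summed level of 4588 to 4698 CPM in Ctrl and 2509 to 3160 CPM in M0. MCM10, which activates the replicative helicase, was at 103, 108 and 105 CPM in Ctrl and at 26.7, 26.2 and 27.7 CPM in M0 (log2 -1.97, SE 0.08, adjusted p = 1.19e-11). GINS1, a helicase subunit, fell 3.01-fold, the ligase LIG1 3.01-fold and PCNA, the polymerase clamp, 2.79-fold. The 6 MCM2 to MCM7 subunits of the helicase ring did not move equally. MCM3 fell by 1.56, MCM4 by 0.96, MCM2 by 0.40 and MCM5 by 0.26 on the log2 scale, while MCM7 (-0.18) and MCM6 (-0.12, adjusted p = 0.22) were not called. In bulk RNA, fewer cells in S phase and less RNA of these genes per cell cannot be told apart.

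Mitosis and spindle genes were lower in 26 of 35 and higher in none, with a median of -0.72. KIF20A, a kinesin of cytokinesis, was at 365, 345 and 345 CPM in Ctrl and at 71.4, 49.4 and 105 CPM in M0 (log2 -2.22, SE 0.22, adjusted p = 4.27e-07). ANLN, an actin-binding protein of the cleavage furrow, fell 3.12-fold, the anaphase activator CDC20 2.99-fold and TOP2A 2.06-fold. MKI67, the proliferation antigen Ki-67, was at 350, 702 and 617 CPM in Ctrl and 267, 186 and 316 CPM in M0, with Ctrl replicate 1 nearest to the M0 values. M0 replicate 3 was the highest M0 library in all of these, and the list's summed level was 11646, 12335 and 11954 CPM in Ctrl and 6805, 5222 and 8694 CPM in M0. Without that library 34 of the 35 were lower and the median was -0.96. Without M0 replicate 2, which had the lowest sum, 26 were lower and the median was -0.57. TPX2 overlapped between the groups, at 1210, 1126 and 1091 CPM in Ctrl and 929, 702 and 1235 CPM in M0. Of the replication genes, 30 were lower without M0 replicate 3 and 29 without M0 replicate 2.

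Cell-cycle promoters carry short motifs for E2F and for the MuvB complex. The MuvB motif TTTGAA was in 13.3% of all starts and in 19 of 38 starts of the mitosis list (50%), and the E2F motif, TTTCGCGC or TTTGGCGC, was in 0.968% of all starts and in 6 of 41 starts of the replication list (14.6%). The windows below, with TTTGAA in capitals, show how close it lay to the start in genes that fell by different amounts.
ANLN (chr7:36389830-36389859, plus strand): ctgaaattcaaaTTTGAAcggctgcagagg
CDC20 (chr1:43358904-43358933, plus strand): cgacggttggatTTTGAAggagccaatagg
BUB1B (chr15:40161034-40161063, plus strand): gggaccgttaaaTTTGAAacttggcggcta
PLK1 (chr16:23678848-23678877, plus strand): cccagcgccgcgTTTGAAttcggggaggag
CCNB2 (chr15:59105105-59105134, plus strand): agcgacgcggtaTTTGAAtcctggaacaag
The motif began 20 bases upstream of the start in ANLN, 65 in CDC20, 23 in BUB1B, 29 in PLK1 and 29 in CCNB2. The log2 fold changes were -1.64 for ANLN, -1.58 for CDC20, -1.16 for BUB1B, -0.90 for PLK1 and -0.11 for CCNB2, the last not called (adjusted p = 0.552).

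Regulators of G1 moved strongly and in both directions, 9 higher and 10 lower of 21. CDKN2C, the CDK4 and CDK6 inhibitor p18 (chr1:50960745-50974633), was at 101, 88.5 and 92.2 CPM in Ctrl and at 10.4, 9.5 and 15.1 CPM in M0, 8.01-fold lower (log2 -3.00, SE 0.14, adjusted p = 7.1e-11). CDKN1A, the inhibitor p21, went the other way, from 2.9, 3.48 and 3.81 CPM to 12, 15.2 and 26.3 CPM, and CDKN2B, the inhibitor p15, rose 3.25-fold. Among the D cyclins, CCND2 rose from 14.3 ± 2.15 to 136 ± 14.4 CPM, CCND3 fell from 43.1 ± 2.99 to 14.1 ± 2.08 CPM and CCND1 fell by 0.58 on the log2 scale. The S-phase cyclin CCNE2 and the activator E2F2 were 3.18-fold and 5.6-fold lower, while E2F7, a repressor of E2F targets, was 3.24-fold higher.

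Targets of p53 gave no common direction by count, 10 higher and 6 lower of 20 with a median of 0.14, but the larger changes were upward. At least 2-fold, 8 were higher and 0 lower, where 8.36% of all genes were higher and 8.03% lower. The summed level of the list was 578 to 600.2 CPM in Ctrl and 1068 to 1162 CPM in M0. GADD45A, which ATF4 also induces, rose from 33.2 ± 2.04 to 288 ± 34.2 CPM, and BBC3, the BH3-only protein PUMA, from 1.02 ± 0.17 to 7.24 ± 0.50 CPM. MDM2, the feedback inhibitor of p53, rose 1.24-fold with overlapping libraries (adjusted p = 0.0214), while BAX and DDB2 fell by 0.31 and 0.69 on the log2 scale. Cytosolic ribosomal proteins were higher in 27 of 39 and lower in 1, by less than 2-fold in every case, with a median of 0.34 (0.27 with library totals as the only scaling). RPL3 was at 550, 588 and 604 CPM in Ctrl and 899, 1027 and 874 CPM in M0, and RPL7A, the member that fell, was 1.31-fold lower. Without Ctrl replicate 1, 3 members were lower, and 2 with library totals as the only scaling.

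Heat shock proteins, chaperones of the cytosol and mitochondria under the factor HSF1, were lower in 13 of 14, with a median of -0.89 and a summed level of 11346 to 11702 CPM in Ctrl and 5460 to 6048 CPM in M0. HSPA8, the constitutive HSP70, was at 3588, 3630 and 3696 CPM in Ctrl and at 997, 1097 and 1102 CPM in M0 (log2 -1.77, SE 0.12, adjusted p = 3.64e-09), and had the most CPM in Ctrl of all genes at least 2-fold lower. The inducible HSPA1A was 9.21-fold lower (33.3, 29.8 and 31.5 against 4.12, 3.77 and 2.42 CPM) and HSPA1B 5.37-fold, a nearly identical pair of genes whose reads cannot be assigned with certainty. HSP90AA1 fell from 3875 ± 120 to 1999 ± 240 CPM, and its cochaperone DNAJA1 from 486 ± 31.4 to 161 ± 9.69 CPM. HSF1 itself was the member that rose, from 118 ± 12 to 169 ± 5.90 CPM. The heat shock motif, GAA, TTC and GAA in a row with 2 free bases between neighbours on either strand, was in 0.441% of all starts and in 4 of 19 starts of the list (21.1%). The windows, with the motif in capitals, are from 3 members that fell by different amounts.
HSPA8 (chr11:123062171-123062199, minus strand): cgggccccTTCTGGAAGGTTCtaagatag
HSP90AA1 (chr14:102087112-102087140, minus strand): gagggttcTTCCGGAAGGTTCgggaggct
HSP90AB1 (chr6:44247823-44247851, plus strand): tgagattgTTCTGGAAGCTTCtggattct
HSPA8 fell 3.42-fold, HSP90AA1 1.94-fold and HSP90AB1 1.56-fold.

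**Figure D4:**
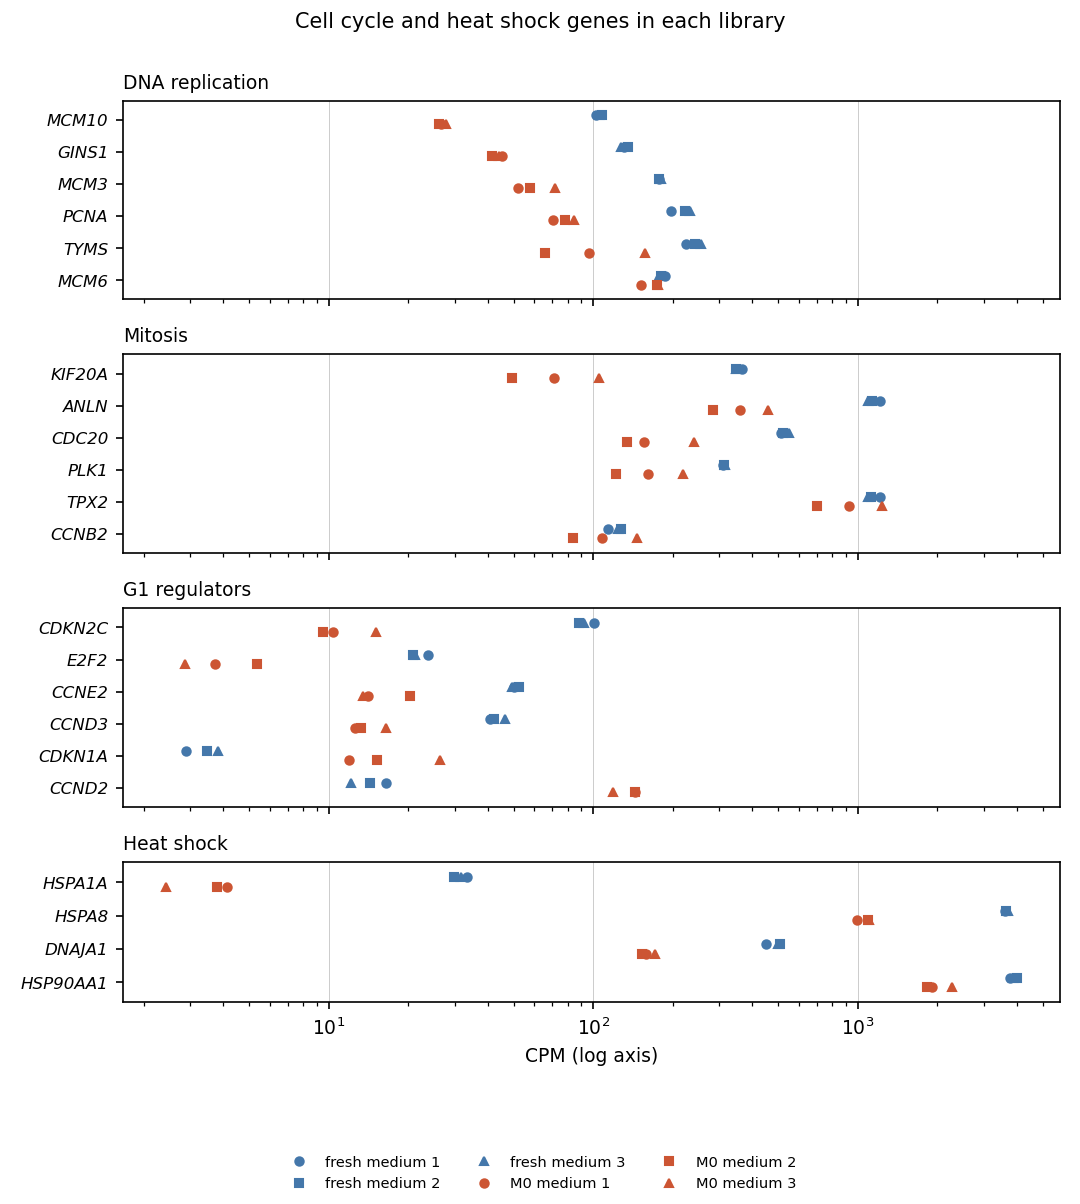
Level of cell cycle and heat shock genes in each library, in CPM on a log axis, with fresh medium in blue and M0 medium in red. MCM10, GINS1 and HSPA8 have M0 libraries close together, whereas in the mitosis panel the M0 libraries are spread, with replicate 3 above every Ctrl library for TPX2 (1235 CPM) and CCNB2 (146 CPM).

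Sterol synthesis fell too. Of 22 genes of cholesterol synthesis and uptake, 16 were lower and 2 higher, with a median of -0.69. EBP, the sterol isomerase, was at 25.3, 25.2 and 25.7 CPM in Ctrl and at 9.01, 7.45 and 10.7 CPM in M0, 2.8-fold lower. HSD17B7 fell 3.63-fold. The 2 higher members were SREBF2, the factor that drives the pathway (1.39-fold), and SC5D (1.48-fold). SREBF1, which drives fatty acid synthesis, rose 2-fold while FASN fell by 0.59 on the log2 scale. Of 13 fatty acid synthesis genes, 3 were higher and 6 lower.

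Of the 25 genes with the lowest fold changes, 12 were below 5 CPM in Ctrl. RGS4, which switches off G protein signalling (chr1:163068775-163076802), led them with 71.5, 62.6 and 59.5 CPM in Ctrl and 1.18, 0.885 and 1.44 CPM in M0, 54.2-fold lower (log2 -5.76, SE 0.16, adjusted p = 1.33e-13). Others of its family moved far less. RGS19 fell 2.24-fold and RGS3 1.54-fold, RGS7 rose 1.81-fold, and of 11 family members tested 6 were lower and 3 higher, with 1 higher without Ctrl replicate 1, without M0 replicate 2 or with library totals as the only scaling. CAVIN2, a coat protein of caveolae (chr2:191834302-191847255), was at 16.5, 16.1 and 15.4 CPM in Ctrl and 0.709, 1.16 and 0.911 CPM in M0, 17.5-fold lower (adjusted p = 7.61e-12). HAS3, which makes hyaluronan (chr16:69105564-69118719), was at 38.2, 29.5 and 29.6 CPM in Ctrl and 2.36, 2.51 and 2.1 CPM in M0, 14-fold lower (adjusted p = 3.74e-12). Libraries of the 2 groups were well apart in all 3 genes. The exons of CAVIN2 and HAS3 overlap those of AC098617.1 and CHTF8 on the opposite strand, and 7 of the 25 have such an overlap.

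Also among the 25, PDE7B, a phosphodiesterase that hydrolyses cyclic AMP (chr6:135851696-136195574), fell from 9.52 ± 1.64 to 0.790 ± 0.088 CPM. APLN, the peptide ligand of the apelin receptor, fell from 1.54 ± 0.15 to 0.114 ± 0.070 CPM, and GNB3, a G protein beta subunit, from 3.64 ± 2.35 to 0.517 ± 0.36 CPM. The ion channel genes SCN2A, a sodium channel, and KCNJ8, a potassium channel, were 7.81-fold and 7.61-fold lower. PCDH18, a protocadherin, was 24-fold lower, LRRTM2, a synaptic adhesion protein, 14.5-fold, and the extracellular protein OLFML2B 12-fold. The carboxypeptidase CPA4 was 9.56-fold lower. These were small in reads in M0, and their SE on the log2 scale was 0.20 for PDE7B, 0.43 for APLN, 0.40 for PCDH18 and 0.45 for GNB3.

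TET1, which oxidizes methylcytosine (chr10:68560656-68694482), was at 5.25, 5.02 and 4.78 CPM in Ctrl and 0.776, 0.466 and 0.456 CPM in M0 (log2 -3.12, SE 0.21, adjusted p = 5.84e-09). RARB, a retinoic acid receptor, fell 7.49-fold, KLF17, a zinc finger factor, 16.1-fold and CSRNP3 7.23-fold. FAM111B, a protease tied to DNA replication (chr11:59107185-59127410), was at 69.4, 77 and 74 CPM in Ctrl and 8.44, 11.9 and 6.06 CPM in M0, 8.45-fold lower. The long noncoding RNA LINP1, linked to repair of DNA breaks, fell 12-fold. PSG4, a pregnancy-specific glycoprotein, fell from 207 ± 6.50 to 26.3 ± 7.02 CPM, but its family is nearly identical in sequence and its reads may be shared among members. AC137932.2, AL365356.5 and AC016722.3, transcripts with clone-based names, complete the 25 with HSPA1A, CDKN2C and MIR210HG.

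**Figure D5:**
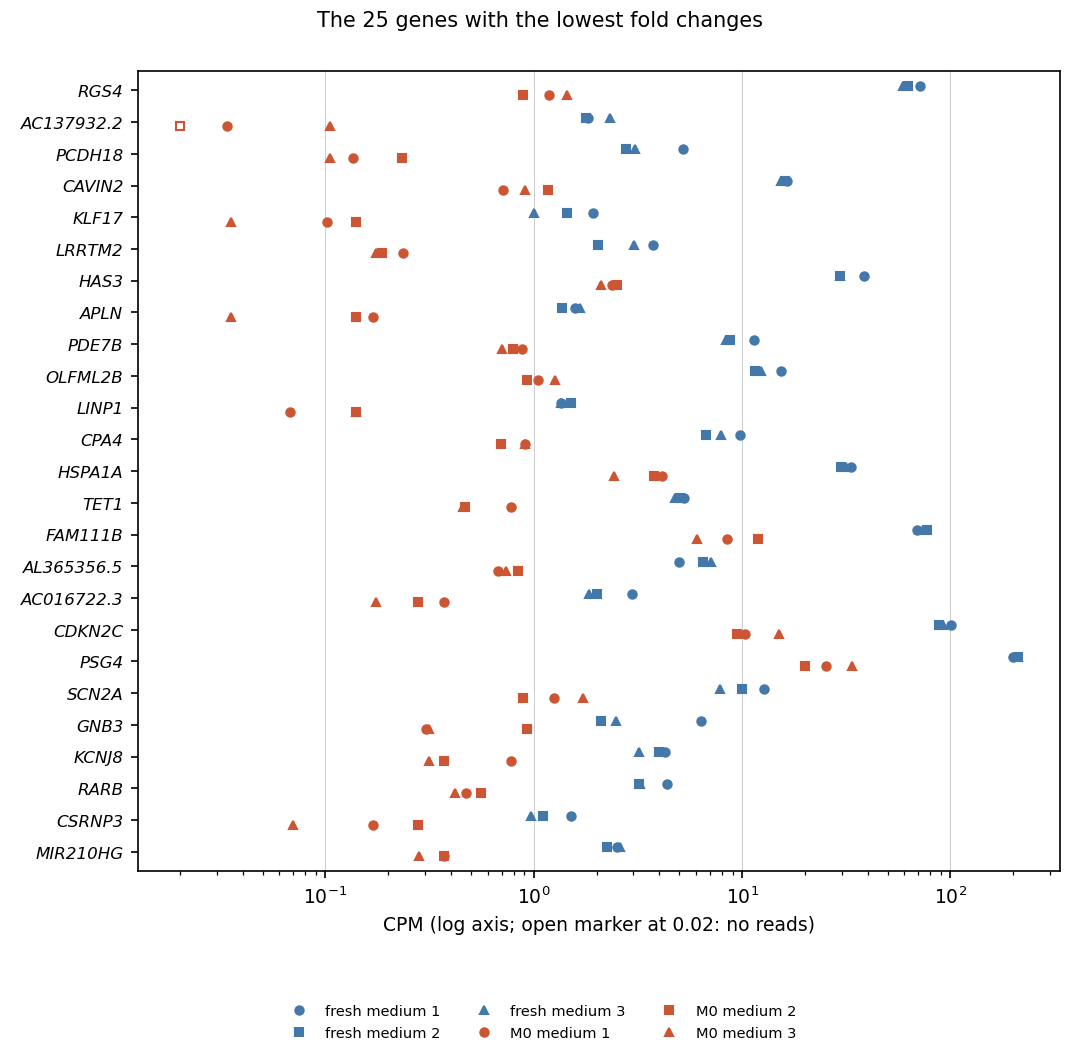
Level of the 25 genes with the lowest fold changes in each library, in CPM on a log axis, with fresh medium in blue, M0 medium in red and an open marker where a library had no read. RGS4 has 59.5 to 71.5 CPM in Ctrl and 0.885 to 1.44 CPM in M0, and in all 25 genes the groups lie apart, as the rule that chose them required.

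By reads rather than by fold, the 5 genes with the most CPM in Ctrl among those at least 2-fold lower were HSPA8, SPARC, ANLN, SFRP1 and CALR. SPARC, a matrix glycoprotein, was at 1923, 1510 and 1543 CPM in Ctrl and at 408, 385 and 428 CPM in M0 (log2 -2.03, SE 0.09, adjusted p = 2.72e-11). SFRP1, a secreted antagonist of Wnt, was at 1179, 945 and 924 CPM in Ctrl and at 157, 119 and 213 CPM in M0, 6.23-fold lower (adjusted p = 1.63e-09). Ctrl replicate 1 was the highest library in both, and no M0 library reached the Ctrl range. Collagens and matrix glycoproteins were lower in 9 of 22 (40.9%) and higher in 6 (27.3%), near the shares of all genes, 30.6% lower and 31.1% higher. Integrins and adhesion receptors were lower in 8 of 17 (47.1%) and higher in 2 (11.8%). The 6 collagen and matrix genes called higher became 2 without M0 replicate 2 and 3 without Ctrl replicate 2, without Ctrl replicate 3 or with library totals as the only scaling, and the 2 higher integrins became 4 without Ctrl replicate 1. TNC, tenascin C, was the matrix gene that rose most, from 70.1 ± 3.49 to 189 ± 33.2 CPM. The fall of COL7A1 (log2 -1.76) rested on Ctrl replicate 1, at 1.53 CPM against 0.402 and 0.5, and was not called without it (log2 -0.86, adjusted p = 0.213) or without M0 replicate 3 (adjusted p = 0.0711).

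Among the 15 highest fold changes, those outside the stress and inflammation lists were of varied kinds. PAPPA2, a protease that frees insulin-like growth factor from its binding proteins (chr1:176463171-176845605), was at 5.07, 3.72 and 3.81 CPM in Ctrl and 308, 381 and 205 CPM in M0 (log2 6.13, SE 0.21, adjusted p = 1.8e-12). HOXB9, a homeobox factor, rose from 0.122 ± 0.054 to 9.77 ± 2.66 CPM. KLHDC7B had 3 reads in Ctrl and 503 in M0, a ratio of 222.4 (exact 95% counting interval 75.66 to 1082), and FUT1, a fucosyltransferase of blood group antigens, 3 and 310 reads, a ratio of 137.1 (46.47 to 668.3). SPRR2D, a cornified envelope protein, had 1 and 130 reads, a ratio of 172.4 (30.41 to 6862). M0 replicate 3 was the lowest M0 library in PAPPA2, HOXB9 and KLHDC7B, at 205, 6.91 and 3.86 CPM.

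M1 and M2 medium share the Ctrl libraries with M0, so levels are set side by side and the tests are of M1 and then M2 against M0, with edgeR's adjusted p in parentheses. Of the stress genes, ASNS had 11.5, 10.6 and 15.4 CPM in M0, M1 and M2 (adjusted p = 0.62 and 0.063 against M0), DDIT4 326, 329 and 338 CPM (0.9 and 0.61), and TRIB3 765, 394 and 603 CPM (1.3e-07 and 0.0057). Of the inflammatory genes, IL1A had 18.1, 83.1 and 15.8 CPM (9.81e-10 and 0.26), TNFAIP3 22.6, 242 and 14.7 CPM (3.41e-14 and 0.000423), and SOD2 239, 2039 and 171 CPM (1.95e-12 and 0.00304).

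The cell-cycle genes PLK1 and TPX2 were lower still in the polarized media. PLK1 had 167, 49.8 and 78.5 CPM in M0, M1 and M2 (adjusted p = 1.1e-06 and 0.00095 against M0), and TPX2, not called in M0, 956, 391 and 484 CPM (1.36e-05 and 0.00132). The 25 genes with the lowest fold changes all had M1 and M2 means below the Ctrl mean. They were chosen with the same Ctrl libraries, so this was not an independent comparison. Against M0, lowered genes differed by gene. SFRP1 had 163, 31.8 and 114 CPM (1.96e-08 and 0.0236), HAS3 2.33, 2.58 and 4 CPM (0.466 and 0.00296), and HSPA8 1065, 1432 and 939 CPM (0.00495 and 0.246). MMP3 had 44.3 CPM in M0 against 10.9 in M1 and 10.6 in M2 (adjusted p = 6.9e-05 and 0.00091), with 4.18 in Ctrl.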

How the data were processed

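Stranded mRNA libraries gave single 50 nt reads, per the labels' protocols, over 2 runs that no file keeps apart. The submitters' processing notes name hg38, STAR 2.5.4b and Bowtie2 2.2.3, DESeq2 1.20.0, and Trimmomatic 0.36 with FastQC 0.11.7. Which program counted the reads, whether it used strand, and with which gene models, is not given in the sources used here. Raw counts for 58288 gene identifiers are what the authors deposited, and 12 of 12 per-sample count files equalled the table. A second table that the authors deposited, on a log2-like variance-stabilized scale, served only to pair identifiers with symbols.

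All 12 libraries were fitted together with edgeR 4.0.16 (R 4.3.3): TMM, filterByExpr (minimum count 10, total 15), quasi-likelihood F test and Benjamini-Hochberg adjustment over 14088 genes. The script was tested on simulated data. CPM uses TMM-scaled totals, ± is SD with n = 3, and SE is the log2 fold change over the root of F. The floor that no reads leave is 3 counts, which is 0.0699 to 0.138 CPM across the 6 libraries. Replicates differed beyond sampling noise (chi-square per degree of freedom 4.53 to 28.74).

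The comparison, lists and named genes were chosen with earlier results of these data known. The rule named the 25 lowest and 15 highest fold changes (called, at least 1 CPM in the higher group, no overlap), the 4 largest changes per list, members against their list where 3 or fewer, and the 5 genes with the most CPM among those at least 2-fold lower and higher. Other list members, and the motifs other than TGATGNAA, were picked after their values were seen. Gene coordinates are GENCODE release 29 on GRCh38, which held 58025 of the identifiers. Promoter windows are RefSeq sequences on GRCh38.p14. Alternatives were RLE scaling, library totals, no filter, the 6 libraries alone, a replicate block, DESeq2 1.42.0 and leaving out each library. With the 6 libraries alone, fewer members passed the filter in further lists. The STAT3 and IL6-family list had 17 tested (9 higher, 5 lower) and the immediate-early list 25 (18 and 3). The axon guidance list had 21 (6 and 8) and the list of BCL2 proteins and caspases 20 (9 and 5). Some members that are counted in the lists are not reported here by name.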

Additional observations from a re-analysis of the deposited data

How the results depend on the processing

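The count of called genes, 8695 as reported, was 7891 to 8366 on leaving out each of the 6 libraries, 8654 with RLE scaling, 8655 with library totals, 8730 with no filter, 8000 from the 6 libraries alone and 8361 with DESeq2. At least 2-fold, 2309 became 2177 to 2453 on leaving out libraries and 2093 to 2754 otherwise. Among the named genes no direction reversed under these settings, and calls were lost for RGS5, RGS10, TXN, CXCL1, CFB, COL7A1, PDGFRA and CA9. With library totals as the only scaling, 42.88% of called genes were higher in place of 50.44%. Same-numbered Ctrl and M0 libraries had deviation correlations of 0.135, -0.0278 and 0.0544, and differently numbered ones -0.13 to 0.0518. With 3 libraries in each group these values cannot tell whether the numbers pair libraries. With a replicate block 8741 genes were called, 2301 at least 2-fold. Genes under about 0.1 CPM cannot be compared at this depth.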

Other observations

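Genes of cell death moved without a common direction, 10 higher and 5 lower of 21 in the list of BCL2 proteins and caspases. These were 47.6% and 23.8% of the list, against 31.1% and 30.6% of all genes. The BH3-only gene PMAIP1, which encodes NOXA, was at 12.5, 11.5 and 11.6 CPM in Ctrl and 96.6, 89.5 and 110 CPM in M0, 8.31-fold higher (log2 3.05, SE 0.09, adjusted p = 2.45e-13). Its antagonist MCL1 rose from 391 ± 12.1 to 799 ± 79.7 CPM, and the survival gene BCL2A1 from 0.503 ± 0.20 to 6.15 ± 1.92 CPM. The inflammatory caspase CASP4 rose 3.65-fold, while the executioner CASP6 fell 2.65-fold.

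Of 13 genes in the list of ID proteins and SMAD feedback, 6 were higher and 6 lower, with a median of 0.08. In the fit of the 6 Ctrl and M0 libraries, 12 were tested, 5 higher and 6 lower, with a median of -0.45. ID1, ID2, ID3 and ATOH8 fell, as did the inhibitor SMAD6, while SMAD7 and SKIL rose by 0.38 and 0.37 on the log2 scale. SMAD6 went from 3.65, 3.72 and 3.41 CPM to 0.641, 0.559 and 0.596 CPM. The ligand BMP2 rose 5.28-fold. The Notch targets HEY1 and HES1 rose 6.92-fold and 3.77-fold. UNC5B, a netrin receptor, rose from 3.55 ± 0.64 to 98.2 ± 10.4 CPM, while SEMA7A and EPHA5 fell 4.07-fold and 3.07-fold. Of 22 axon guidance genes, 6 were higher (27.3%) and 8 lower (36.4%), near the shares of all genes (31.1% and 30.6%). CTGF rose 6.43-fold and THBS1 fell 2.58-fold, both being common readouts of TGF-beta and YAP. They were the 2 extremes of the list of TGF-beta, YAP and SRF targets. Of its 17 members tested, 8 were higher and 5 lower, with a median of 0.30.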
